A study of Homo sapiens with 6 samples.

Results

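The mRNA levels of 10 cytosolic heat shock genes were followed in K562 cells, a human erythroleukemia cell line, with and without induced PCBP1, an RNA-binding protein that also carries iron. The genes were taken by name, from a list set with earlier results of these data known: HSF1, HSPA1A, HSPA1B, HSPA8, HSP90AA1, HSP90AB1, HSPH1, DNAJB1, HSPB1 and BAG3. They are 10 of the 62252 genes to which the quantified transcripts were assigned. All 10 had a lower mean in +Dox cells. Of these, 6 passed the test as lower, by 11.8% to 20.9% in CPM (counts scaled by library size), and 0 as higher. Of all genes tested, 7.68% passed as lower and 8.16% as higher. Among genes with a mean of at least 10 CPM, as all members had, 13.8% passed as lower. HSPA8, HSP90AA1, HSP90AB1 and HSPH1 passed in every alternative fit, including those that left out 1 library, and DNAJB1 and BAG3 did not.

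The data were polyA-selected, paired-end RNA-seq libraries from 3 samples without doxycycline (−Dox, the controls) and 3 with doxycycline (+Dox, PCBP1 OE). Cells of both groups carried the same cassette, a doxycycline-inducible Flag-tagged PCBP1 placed at the AAVS1 locus of a single-cell K562 clone (K562flox) by recombinase-mediated cassette exchange, after which the cells were selected with puromycin as a pool. The groups therefore differed in doxycycline as well as in PCBP1, and those 2 differences cannot be told apart here. The dose and time of doxycycline for these libraries are not given in the sources used here, and no label says whether replicates were separate cultures or technical repeats, so p-values measure only the spread between these samples.

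Libraries held 84177316, 80104627 and 74766040 estimated counts in −Dox and 70905656, 82263502 and 82449808 in +Dox. PCBP1, the induced gene, stood at 248, 269.5 and 267 CPM in −Dox and at 1030, 936 and 1037 CPM in +Dox. The groups were far apart, with a log2 fold change of 1.94 (SE 0.06) and an adjusted p of 5.22e-10 by edgeR's quasi-likelihood test. All 11 K562 markers were above 1 CPM in the mean, led by the gamma-globin gene HBG2 with 3580 (−Dox) and 3620 CPM (+Dox). Among 13 markers of other blood, epithelial, stromal and endothelial cells, the B-cell marker MS4A1 was at 0 in every library, and 6 were high enough to test. The most abundant of these, the lysozyme gene LYZ, fell by 0.47 on the log2 scale (adjusted p = 0.00837, edgeR) from 144 to 104 CPM. The other 5 were not called, and the median log2 fold change of the 6 was −0.06. LYZ held most of the summed level of the 13 markers, which was 197, 223 and 247 CPM in −Dox and 173, 164 and 198 CPM in +Dox, and the part of these markers in the results below was not tested. Of the 11 K562 markers, 4 were called higher and 1 lower by edgeR, against 8.16% and 7.68% of all genes tested. EPOR, the erythropoietin receptor gene, rose by 0.97 (adjusted p = 6.52e-07) and HBZ, the zeta-globin gene, fell by 0.40 (adjusted p = 0.00213) on the log2 scale, both by edgeR.

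Heat shock proteins are chaperones that bind unfolded protein chains, keep them from aggregating and help them fold. HSF1 is the transcription factor that switches on their genes when the load of unfolded protein rises. It binds heat shock elements, short arrays of GAA units in alternating orientation, and HSP70 and HSP90 proteins hold it back in unstressed cells. HSP70 works with J-domain proteins, which deliver clients and stimulate its ATPase, and with nucleotide exchange factors, which reset it, whereas HSP90 finishes the folding of kinases, hormone receptors and other clients.

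Because HSF1 binds such elements, the DNA before the starts of the members other than HSF1 was read for exact heat shock element letters. The search covered 250 bases before a transcript start on both strands, for a pair of inverted units (GAANNTTC or TTCNNGAA) and for 3 alternating units (GAANNTTCNNGAA or TTCNNGAANNTTC), each of which contains a pair. One element per gene is shown, the run of 3 units nearest to the start or, where there was none, the nearest pair, 5′ to 3′ on the gene's strand (GRCh38, RefSeq promoter table), with the matching letters in capitals, since they are what the members share and where they differ. The HSPH1 bases were read from hg38 at the annotated start.
HSPA8, 55 bases before the start, chr11:123062170-123062199, minus strand: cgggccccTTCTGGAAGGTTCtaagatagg
HSP90AA1, 88 bases before, chr14:102087111-102087140, minus strand: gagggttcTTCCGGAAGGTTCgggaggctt
HSPH1, 36 bases before, chr13:31161942-31161971, minus strand: gccgcagaTTCTGGAAAGTTCtgatcagtg
HSP90AB1, 112 bases before a start inside the gene, chr6:44247823-44247852, plus strand: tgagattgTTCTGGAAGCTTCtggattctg
HSPA1A, 106 bases before, chr6:31815426-31815455, plus strand: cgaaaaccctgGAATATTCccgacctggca
HSPA1B, 105 bases before, chr6:31827622-31827651, plus strand: cgaaacccctgGAATATTCccgacctggca
DNAJB1, 47 bases before, chr19:14518426-14518455, minus strand: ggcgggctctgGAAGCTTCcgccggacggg
HSPB1, 182 bases before, chr7:76302480-76302509, plus strand: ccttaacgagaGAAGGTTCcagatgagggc

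A pair of units lay within the 250 bases before the main start of 7 of the 9 members with a window (77.8%), against 11.6% of all 35116 RefSeq windows of that length. Runs of 3 units lay before 3 of the 9 (33.3%, HSPA8, HSP90AA1 and HSPH1), against 0.441% of all windows. The HSPH1 window counted here is not one of the RefSeq windows, and the RefSeq window of HSPH1, before a start further upstream, held neither motif. The HSPA1A and HSPA1B elements sit in nearly the same letters, and HSP90AA1 held a further pair nearer to its start, 68 bases before it. For HSP90AB1 the window before the main start held no match, and both of its 3-unit runs lay before another RefSeq start 842 bases downstream, inside the transcribed gene. The other RefSeq starts of HSP90AA1, HSP90AB1 and DNAJB1 had no match. BAG3 held no match to these letters in this window. No window was read for HSF1. A match of letters is a description and not a measured binding site. As the members were chosen by name as heat shock genes, a share above that of all windows is no finding about these libraries.

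**Figure D1:**
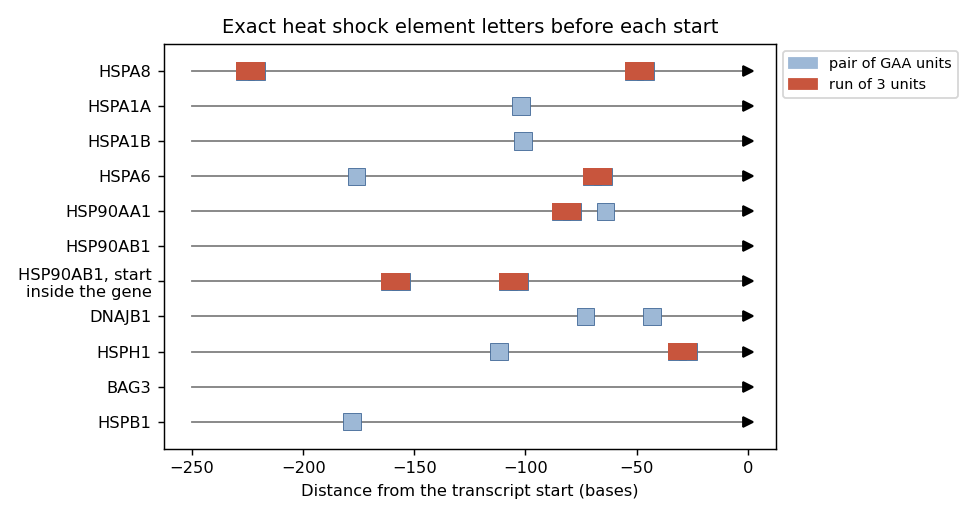
Positions of exact heat shock element letters in the 250 bases before each transcript start (horizontal axis, distance from the start in bases, with the start at the arrowhead). Blue bars are pairs of units and red bars are runs of 3 units. HSPA8, HSP90AA1, HSPH1, HSPA6 and the internal HSP90AB1 start have a red bar, and the BAG3 and main HSP90AB1 lines are empty.

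By TPM, which scales transcript counts by length and library, HSPA8 was the most abundant of the 10 mRNAs in −Dox, at 1557 ± 26.3 TPM (SD, n = 3). HSP90AA1 at 990.4 ± 23.4 TPM and HSP90AB1 at 949 ± 58.2 TPM followed, and the ranges of these 2 overlapped. HSPB1 came next at 351 ± 9.16 TPM, then HSPA1A at 106 ± 8.02 TPM. HSPA1B (69.7 ± 6.15 TPM) and HSPH1 (64.0 ± 2.41 TPM) overlapped, and DNAJB1 (51.0 ± 2.37 TPM), HSF1 (23.6 ± 1.12 TPM) and BAG3 (7.57 ± 0.50 TPM) closed the list. The order was the same in +Dox, with the same 2 overlapping pairs of neighbours. HSPA8, HSP90AA1 and HSP90AB1 together held 81.5% to 84.7% of the members' TPM in the 6 libraries.

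Together the 10 mRNAs were less abundant in each +Dox library than in any −Dox library. Their summed level was 4215, 4114 and 4176 TPM in −Dox and 3269, 3420 and 3280 TPM in +Dox. The means were 4168 ± 50.8 and 3323 ± 83.7 TPM (SD, n = 3), a ratio of 0.797. An exact two-sided permutation test gave p = 0.1, the smallest that 3 against 3 libraries allow. A lower share of the RNA and less RNA per cell cannot be told apart in such libraries.

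**Figure D2:**
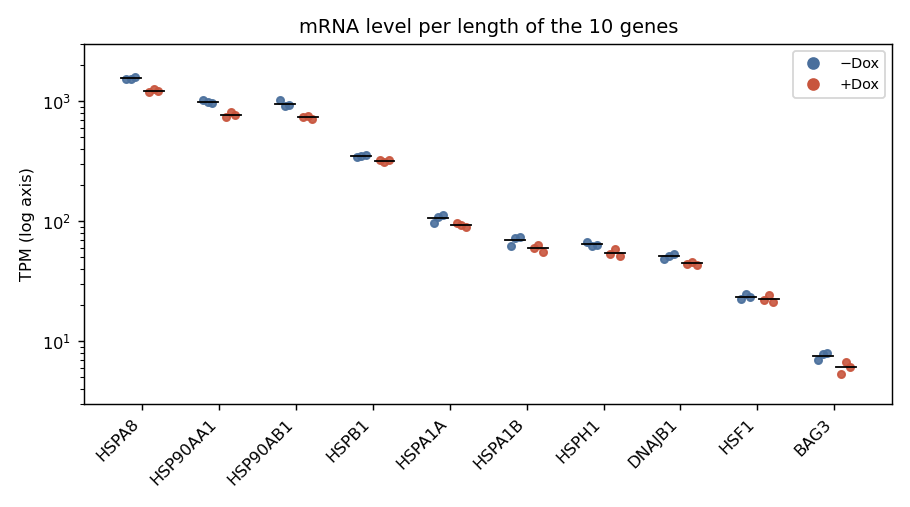
Level of each gene in TPM (vertical log axis) in 3 −Dox (blue) and 3 +Dox (red) libraries, with points for libraries and bars for means. Genes are ordered by the −Dox mean, from HSPA8 at 1557 TPM to BAG3 at 7.57 TPM.

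All 10 genes passed the filter on low counts and were tested among 21045 genes. At an adjusted p under 0.05 by edgeR's quasi-likelihood test, 6 of the 10 were called lower and 0 higher, where 15.8% of all genes tested were called, 7.68% lower and 8.16% higher. Among the 9289 genes with a mean of at least 10 CPM, as all members had, 13.8% were called lower and 12.8% higher. In CPM the same 6 members had groups that did not overlap, as did 15.8% of all genes tested and 23.7% of those at 10 CPM or more, counting genes that were lower in +Dox. In TPM, HSPA1A and HSPB1 were apart as well, which made 8 of 10, against 16.7% of all genes tested. The members' median log2 fold change was −0.21, against 0.01 over all genes tested. None of the members was a DEG by the study's limits, an adjusted p under 0.05 with an absolute log2 fold change over 1, which 1.46% of all genes tested met. One library needs naming beforehand: −Dox replicate 1 was the lowest of its group for 7 of the 10 members, as it was for 44.4% of genes at 10 CPM or more. Without it 9 of the 10 were called lower, against 8.09% of all genes tested in that fit. Only HSPA8, HSP90AA1, HSP90AB1 and HSPH1 were called once −Dox replicate 2 or 3, or +Dox replicate 1 or 3, was left out, and these with BAG3 without +Dox replicate 2, against 5.06% to 5.47% of all genes tested in those 5 fits.

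**Figure D3:**
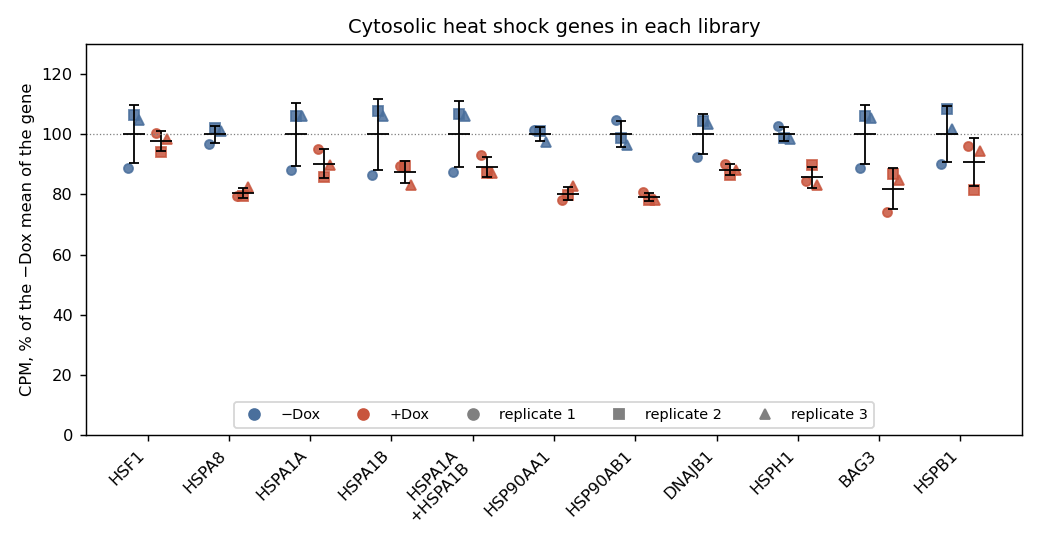
CPM of each gene in each library as a percentage of the gene's −Dox mean (vertical axis, from 0), for −Dox (blue) and +Dox (red), with circles, squares and triangles for replicates 1, 2 and 3. Bars are means with SD (n = 3). The +Dox points of HSPA8, HSP90AA1, HSP90AB1, HSPH1, DNAJB1 and BAG3 lie below all their −Dox points, and the −Dox circle is low for most of the other genes.

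HSF1 (ENSG00000185122, GRCh38 chromosome 8, 144291591 to 144314720), the regulator of the response, stood at 38.02, 45.5 and 44.9 CPM in −Dox. In +Dox it stood at 43.0, 40.3 and 42.2 CPM. The +Dox libraries lay within the −Dox range. The log2 fold change was −0.03 (SE 0.07, adjusted p = 0.812, edgeR). It was −0.11 without −Dox replicate 1, −0.0059 without +Dox replicate 2 and −0.053 without +Dox replicate 1, and it turned slightly positive without −Dox replicate 2 or 3.

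HSPA8 (ENSG00000109971, chromosome 11, 123057489 to 123063230, minus strand) encodes HSC70, the constitutive HSP70 of the cytosol that also uncoats clathrin vesicles. It stood at 3264, 3441 and 3413 CPM in −Dox and at 2677, 2681 and 2781 CPM in +Dox. Every +Dox library was below every −Dox library. HSPA8 fell by 0.31 on the log2 scale (SE 0.04, adjusted p = 0.000424, edgeR), a level 19.6% lower.

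HSPA1A and HSPA1B (ENSG00000204389 and ENSG00000204388, chromosome 6, 31815543 to 31817946 and 31827738 to 31830254) encode the stress-inducible HSP70. Their open reading frames differed at 4 of 1926 bases (99.8% identical), so the split of reads between them is uncertain and their sum is the safer value. The sum stood at 388, 474 and 472 CPM in −Dox and at 413, 388 and 387 CPM in +Dox. In CPM, −Dox replicates 2 and 3 were above all +Dox libraries, while −Dox replicate 1 lay among them. In TPM the sum was 159.7, 180.1 and 186.8 in −Dox and 155.3, 155.9 and 145.5 in +Dox. There the groups did not overlap. Among all genes tested, 16.7% were likewise apart in TPM and lower in +Dox. The log2 fold change of the sum was −0.17 (SE 0.07, adjusted p = 0.127, edgeR). Without −Dox replicate 1 it was −0.26 (adjusted p = 0.00371, edgeR), and DESeq2 on all 6 libraries gave −0.18 (adjusted p = 0.0465). Taken singly, neither was called by edgeR, HSPA1A at −0.15 (adjusted p = 0.18) and HSPA1B at −0.20 (adjusted p = 0.0939) on the log2 scale, although DESeq2, which called lower 11.5% of the 17770 genes to which it gave an adjusted p, called HSPA1B (adjusted p = 0.0273) and both were called without −Dox replicate 1.

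HSP90AA1 (ENSG00000080824, chromosome 14, 102080742 to 102139699, minus strand) encodes the inducible cytosolic HSP90α. Its level was 3188, 3174 and 3057 CPM in −Dox and 2457, 2509.65 and 2596 CPM in +Dox. HSP90AB1 (ENSG00000096384, chromosome 6, 44246166 to 44253888, plus strand) encodes the constitutive HSP90β and stood at 2578, 2426 and 2373 CPM in −Dox and at 1984, 1925 and 1925 CPM in +Dox. The groups did not overlap for either gene. HSP90AA1 fell by 0.32 (SE 0.04, adjusted p = 0.000408) and HSP90AB1 by 0.34 (SE 0.05, adjusted p = 0.000361) on the log2 scale, both by edgeR. The open reading frames of the 2 genes were 76.0% identical over 2175 aligned bases. Their log2 TPM ratio, HSP90AA1 to HSP90AB1, was 0.06 ± 0.06 in −Dox and 0.08 ± 0.05 in +Dox (SD, n = 3), a difference of 0.02 (exact two-sided permutation p = 0.7) that turned to −0.015 without −Dox replicate 1 and to −0.0085 without +Dox replicate 3.

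HSPH1 (ENSG00000120694, chromosome 13, 31134973 to 31162388, minus strand) encodes HSP110, an HSP70 relative that serves HSP70 as a nucleotide exchange factor. It stood at 219, 210.2 and 209 CPM in −Dox and at 179.6, 191 and 177 CPM in +Dox. The groups were apart, and HSPH1 fell by 0.22 on the log2 scale (SE 0.05, adjusted p = 0.00616, edgeR).

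DNAJB1 (ENSG00000132002, chromosome 19, 14514769 to 14560391, minus strand) encodes HSP40, the J-domain partner of inducible HSP70. Its level was 104, 117 and 117 CPM in −Dox and 102, 97.5 and 99.1 CPM in +Dox. The groups did not overlap, but −Dox replicate 1 was close to the highest +Dox library. DNAJB1 fell by 0.18 on the log2 scale (SE 0.05, adjusted p = 0.0386, edgeR). The call was lost when any library other than −Dox replicate 1 was left out, with adjusted p between 0.0686 and 0.141 by edgeR, and when the model carried a transcript length offset (adjusted p = 0.113).

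BAG3 (ENSG00000151929, chromosome 10, 119651380 to 119677819, plus strand) encodes a nucleotide exchange factor that links HSP70 to small heat shock proteins and to selective autophagy. It stood at 16.9, 20.2 and 20.1 CPM in −Dox and at 14.1, 16.6 and 16.2 CPM in +Dox. +Dox replicate 2 lay just below −Dox replicate 1. BAG3 fell by 0.29 on the log2 scale (SE 0.09, adjusted p = 0.0386, edgeR), and the call was lost without −Dox replicate 2 or 3 or +Dox replicate 1 or 3 (adjusted p from 0.0756 to 0.151, edgeR) and with the length offset (adjusted p = 0.106).

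HSPB1 (ENSG00000106211, chromosome 7, 76302673 to 76304295, plus strand) encodes HSP27, a small heat shock protein that holds unfolded clients without ATP. Its level was 187, 225 and 211 CPM in −Dox and 199.98, 169 and 196 CPM in +Dox. The groups overlapped in CPM, and the log2 fold change was −0.14 (SE 0.07, adjusted p = 0.235, edgeR). Without −Dox replicate 1 it was −0.21 (adjusted p = 0.0435, edgeR), without −Dox replicate 2 it was −0.084 (adjusted p = 0.557) and without +Dox replicate 2 it was −0.069 (adjusted p = 0.609).

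Inducible and constitutive HSP70 were also set against each other within a library. The log2 TPM ratio of HSPA1A plus HSPA1B to HSPA8 was −3.27, −3.10 and −3.09 in −Dox and −2.93, −3.01 and −3.06 in +Dox. All +Dox ratios were above all −Dox ratios, by 0.15 in the mean (exact two-sided permutation p = 0.1, the smallest possible, and 0.4 adjusted over 4 ratios). Without −Dox replicate 1 the difference was 0.09. For HSPH1 to HSPA8 the difference was 0.13 (exact permutation p = 0.2). The log2 ratio of HSPA1B to HSPA1A differed by −0.05 between groups (exact permutation p = 0.4), by −0.099 without +Dox replicate 2, by −0.025 without +Dox replicate 1 and by −0.014 without +Dox replicate 3.

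Some members were read almost wholly from 1 transcript and others from several. HSP90AA1-201, HSP90AB1-203 and BAG3-201 held 99.3%, 98.9% and 97.1% of their gene's estimated counts, and DNAJB1-201 held 83.1%. HSPA8 was split between HSPA8-224 with 75.5% and HSPA8-201 with 22.3%. HSPH1 was spread over HSPH1-202 (40.5%), HSPH1-206, annotated as a target of nonsense-mediated decay (34.6%), HSPH1-209 (12.6%) and HSPH1-201 (7.71%). Of HSF1 counts, 54.7% were assigned to HSF1-204 and 19.6% to HSF1-210, which retains an intron. These shares are estimates, and the uncertainty of splitting reads between the transcripts of a gene is not in the data used here. Within −Dox alone the HSPH1-206 share ran from 29.8% to 38.8%.

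Across the 19 transcripts with at least 5% of their gene's counts, 15 had a lower and 4 a higher log2 fold change in +Dox. edgeR called 0 of them, where it called 0.204% of all 86178 transcripts tested. At an unadjusted p under 0.05 there were 5 of the 19, against 10% of all transcripts tested. DESeq2 called 4, where it called 7% of the 83898 transcripts to which it gave an adjusted p. Those 4 were HSP90AA1-201, HSP90AB1-203, HSPH1-202 and DNAJB1-201. Shares of the gene's counts did not overlap between groups for 5 of the 19, lower in +Dox for DNAJB1-201, HSPB1-201, HSPH1-202 and HSF1-210 and higher for HSPB1-203. Among all 41546 transcripts tested that held at least 5% of their gene's counts, 6.11% were apart and lower and 6.47% apart and higher. DNAJB1-201 made up 84.7%, 84.0% and 84.4% of DNAJB1 counts in −Dox and 81.0%, 80.5% and 83.5% in +Dox. The HSPB1-201 share was 89.8% ± 0.77 in −Dox and 87.0% ± 1.41 in +Dox (SD, n = 3), that of HSPB1-203 was 5.29% ± 0.47 and 6.25% ± 0.25, that of HSPH1-202 was 41.5% ± 1.67 and 39.0% ± 0.95, and that of HSF1-210 was 20.9% ± 0.78 and 18.3% ± 1.75, in the same order. The HSPA8-224 share ranged from 71.1% to 79.2% in −Dox and from 70.7% to 82.6% in +Dox, so the split varied as much within groups as between them.

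**Figure D4:**
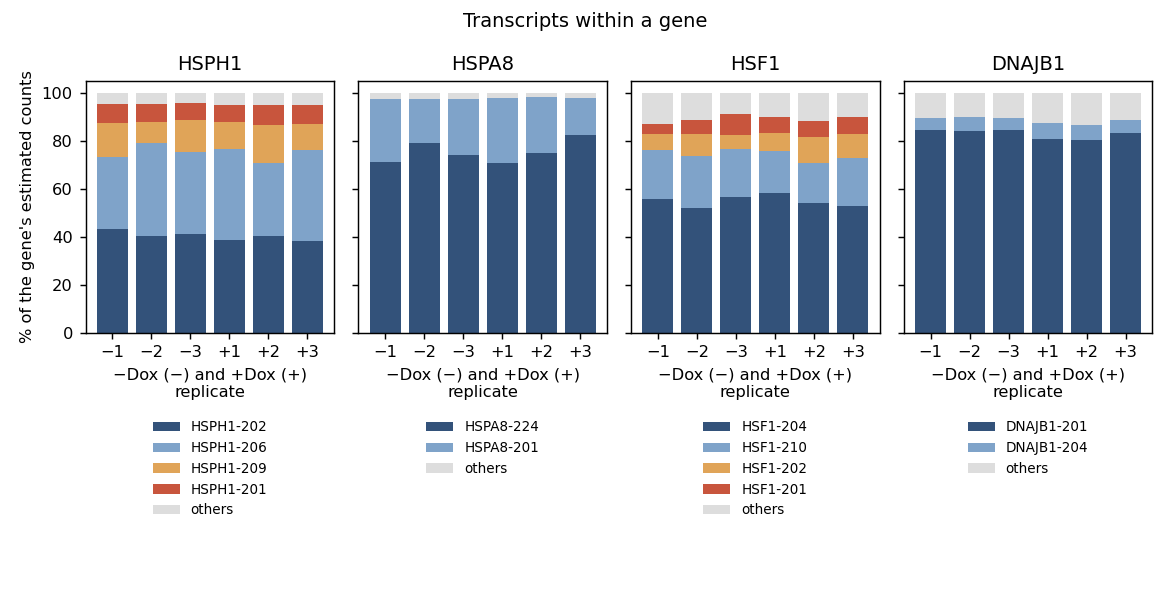
Share of a gene's estimated counts (vertical axis, %) assigned to each transcript with at least 5%, in −Dox replicates 1 to 3 and +Dox replicates 1 to 3, for HSPH1, HSPA8, HSF1 and DNAJB1, with the remaining transcripts in grey. HSPA8-224 varied between 70.7% and 82.6% over the 6 libraries, and DNAJB1-201 between 80.5% and 84.7%.

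Some reads could belong to other loci. Pseudogenes carrying a member's symbol held at most 0.155% of the member's counts in any library. Exons on the opposite strand overlapped DNAJB1 (TECR, 6.41% of its exon bases), HSP90AA1 (WDR20, 3.87%), HSF1 (DGAT1, 2.58%) and HSPA8 (a lncRNA, ENSG00000288061, 11.5%). The mean counts of these neighbours were 5741 for TECR, 1204 for WDR20, 3380 for DGAT1 and 141 for the lncRNA, and since the strand setting is not known, reads from the shared bases cannot be told apart. A lncRNA on the same strand, ENSG00000285565, covered 36.5% of HSPA1B exon bases with a mean count of 26.7.

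Other genes of the chaperone system were read from 10 lists, of whose 106 genes 99 were tested. Of these, 35 were called lower and 4 higher by edgeR, with a median log2 fold change of −0.11. With all 6 libraries the background is as above, 7.68% lower and 8.16% higher. The count called lower ran from 24 to 37 when 1 library was left out, against 5.06% to 8.09% of all genes tested. With a transcript length offset it was 25, against 4.6% of all genes tested. The count called higher was 2 when −Dox replicate 2 or 3, or any +Dox library, was left out.

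Among other HSP70 genes of the cytosol, 3 of 8 were called lower and 0 higher (median log2 fold change −0.27, and −0.18 without +Dox replicate 3). HSPA6, a strictly stress-inducible HSP70 absent from mice, was at 12.2, 13.2 and 13.3 CPM in −Dox and at 6.23, 5.96 and 6.55 CPM in +Dox. All +Dox libraries were near 6 CPM and no −Dox library was below 12. HSPA6 fell by 1.04 on the log2 scale (SE 0.08, adjusted p = 5.62e-06, edgeR), a level 51.5% lower, and it met the DEG limit. Before its start, on chromosome 1, lay the following run of 3 units, shown because the gene had the largest fall of all genes on these lists.
HSPA6, 74 bases before the start, chr1:161524458-161524487, plus strand: cggaaaggTTCGCGAAAGTTCgcggcggcg

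HSPA7, an unprocessed copy of HSPA6 whose transcript was 98.6% identical over 1926 aligned bases, was at 4.76, 3.42 and 3.96 CPM in −Dox and at 3.66, 3.59 and 3.60 CPM in +Dox. The groups overlapped (log2 fold change −0.16, adjusted p = 0.509, edgeR). Leaving out −Dox replicate 1 gave −0.029, and leaving out −Dox replicate 2 gave −0.28. Reads of HSPA6 and HSPA7 could be exchanged in the counting, so both values are uncertain. HSPA14, which works at the ribosome, fell by 0.33 and HSPA4, another HSP110 relative, by 0.20 on the log2 scale (adjusted p = 0.000972 and 0.00656, edgeR). HSPA2 and HSPA12A were below 1 CPM, with log2 fold changes of −0.87 and −0.47 that were not called.

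Of 16 HSP90 co-chaperone genes, 7 were called lower and 0 higher (median −0.17). The immunophilins FKBP4 and PPID fell by 0.28 and 0.30 on the log2 scale (adjusted p = 0.000927 and 0.0012, edgeR). STIP1, the adaptor that passes clients from HSP70 to HSP90, fell by 0.26 (adjusted p = 0.00153, edgeR) from 460.4 to 384 CPM. PTGES3, the p23 co-chaperone, and CHORDC1 fell by 0.19 and 0.21 (adjusted p = 0.00705 and 0.00727, edgeR).

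Of 16 J-domain genes, 4 were called lower and 1 higher. The median was 0.03, and it turned to −0.03 without −Dox replicate 1 or 3 or with the transcript length offset. DNAJC2, which joins HSPA14 at the ribosome, fell by 0.33 (adjusted p = 0.000282, edgeR), and DNAJC7, DNAJB6 and DNAJA2 fell by 0.20, 0.16 and 0.17 (adjusted p = 0.00736, 0.0278 and 0.0345, edgeR). DNAJC9, a histone chaperone, rose by 0.24 (adjusted p = 0.00351, edgeR) from 300.0 to 353 CPM. Of 6 nucleotide exchange factors, BAG2 was called lower (log2 fold change −0.16, adjusted p = 0.0396, edgeR), and BAG5, HSPBP1, BAG4 and BAG1 had log2 fold changes of −0.15, −0.17, −0.15 and −0.11 that were not called.

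In the HSF family, 4 of 6 genes could be tested, with 1 call. HSF4, a relative of HSF1 known from the lens, rose by 0.33 (adjusted p = 0.0177, edgeR) from 11.01 to 13.9 CPM. HSF2 and the HSF1-binding proteins HSBP1 and HSBP1L1 had log2 fold changes of 0.14, 0.04 and −0.41 with no call. Of 9 small heat shock genes, 4 were tested, with a median of 0.10 that was 0.20 without −Dox replicate 1 or 2, −0.06 without −Dox replicate 3 and 0.42 when genes with any count were tested. CRYAB, αB-crystallin, rose by 0.78 (adjusted p = 0.0263, edgeR) and HSPB3 fell by 0.98 (adjusted p = 0.0383, edgeR), both with group means between 0.4 and 2 CPM. HSPB11 and HSPB2 (log2 fold changes 0.15 and 0.06) were not called. HSPB2 was near the floor, at 0.24 (−Dox) and 0.25 CPM (+Dox). Only HSPB11, at 66.6 (−Dox) and 73.7 CPM (+Dox), was above 2 CPM among the 4 tested.

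The TRiC chaperonin, which folds actin and tubulin, and its feeder prefoldin had 6 of 15 genes called lower and 1 higher (median −0.09). TCP1, CCT6A and CCT5 fell by 0.23, 0.20 and 0.19 and PFDN2 by 0.28 (adjusted p = 0.00273, 0.00755, 0.0117 and 0.0193, edgeR), whereas VBP1, a prefoldin subunit, rose by 0.15 (adjusted p = 0.0316, edgeR). Of 5 heat-inducible genes that are not cytosolic chaperones, SERPINH1, the collagen chaperone, fell by 0.27 (adjusted p = 0.00488, edgeR). UBB, IER5 and DEDD2 had log2 fold changes of 0.05, −0.03 and 0.03 and were not called.

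Chaperones of other compartments were read in the same way. Of 10 mitochondrial chaperone genes, 8 were called lower and 0 higher, with a median of −0.28. HSPD1, the HSP60 chaperonin, fell by 0.28 and HSPA9, mitochondrial HSP70, by 0.27 on the log2 scale (adjusted p = 0.000717 and 0.00115, edgeR), and GRPEL1, GRPEL2 and TRAP1 fell by 0.44, 0.41 and 0.29 (adjusted p = 0.000464, 0.0019 and 0.00158, edgeR). Of 15 ER chaperone genes, 4 were called lower and 0 higher (median −0.07). HSPA5, the BiP chaperone, fell by 0.34 (adjusted p = 0.000271, edgeR) from 379 to 299.9 CPM, and HYOU1, HERPUD1 and SDF2L1 fell by 0.21, 0.34 and 0.29 (adjusted p = 0.0137, 0.0368 and 0.0406, edgeR), while PDIA4 (log2 fold change −0.13, adjusted p = 0.0738, edgeR) was not called.

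**Figure D5:**
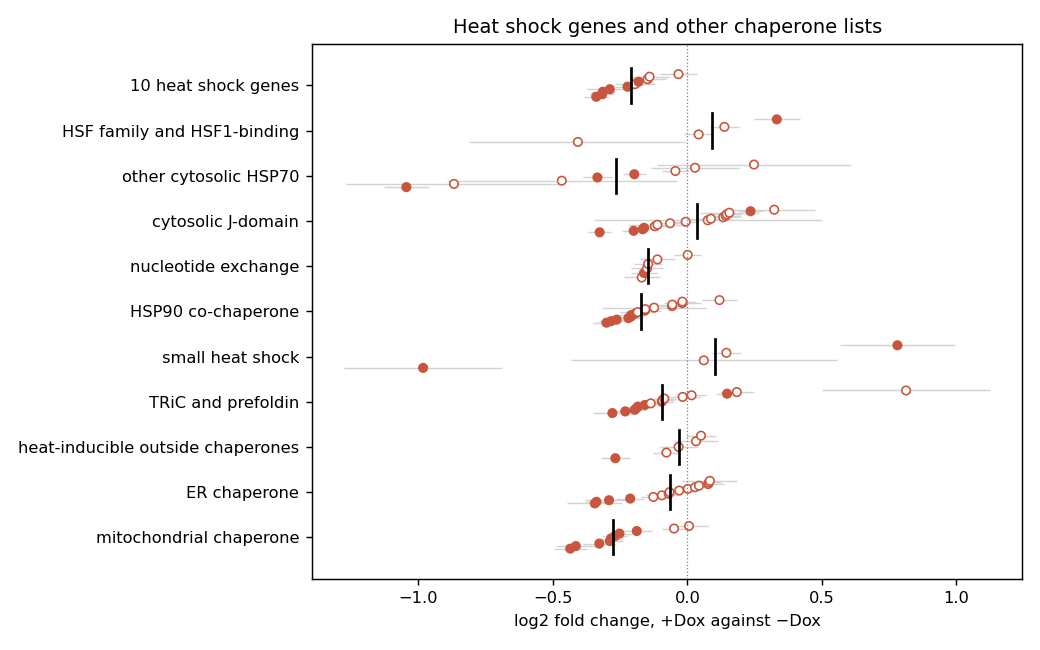
Log2 fold change of each tested gene, +Dox against −Dox (horizontal axis), with SE as grey lines, for the 10 heat shock genes and 10 other chaperone lists. Filled circles passed an adjusted p of 0.05 by edgeR, open circles did not, and black bars are list medians, which run from −0.28 for mitochondrial chaperones to 0.10 for small heat shock genes, a median of 4 genes that was −0.06 without −Dox replicate 3.

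Variation among replicates did not run together in all members. Deviations of log2 CPM from the group means, taken over the 6 libraries, correlated with those of HSPA1A plus HSPA1B at r = 0.99 for DNAJB1, 0.97 for HSF1 and 0.77 for HSPB1. They correlated at 0.65 for HSPA8 and 0.53 for BAG3, but at −0.54 for HSP90AA1, −0.56 for HSPH1 and −0.73 for HSP90AB1. Of 14300 genes ranked, the closest to HSPA1A plus HSPA1B were ENSG00000284776, BST2, SEPTIN1, CACTIN and CCNH, with r from 0.996 to 0.999. As 600 genes (4.2%) had r above 0.9 over 6 libraries, each set against its own group mean, these values are only a description.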

How the data were processed

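Libraries were polyA-selected and sequenced in paired-end reads of 150 cycles. Per the submitters' processing notes the authors quantified transcripts with Salmon 1.10.2 (build hg38) and deposited, per transcript, estimated counts, TPM (scaled by the authors to 1000000 per library) and an effective length (other unit, in bases). The strand setting and the transcript index are not given in the sources used here. Of 252045 transcripts, 251612 matched GENCODE release 44, and the 433 unmatched ones, with 0.125% to 0.138% of counts, were left out.

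Counts and TPM were summed per gene, and counts were rounded to whole numbers. HSPB11 was read under its GENCODE symbol IFT25. The test used edgeR 4.0.16 on genes whose mean count exceeded 10 (TMM, quasi-likelihood, no block, Benjamini-Hochberg over all genes, R 4.3.3). CPM are on TMM-scaled totals. DESeq2 1.42.0, no count filter, a filter of 10 counts in every library, other size factors, a transcript length offset, added pseudogene counts, a replicate block and leaving out each library were alternatives.

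On simulated data for the 21045 genes edgeR recovered 58.2% of changes of 0.3 log2 in genes with high counts, 65.7% of 1 and 98.5% of 3. For the 86178 transcripts it recovered 0% of 0.3, 1.49% of 1 and 30.3% of 3, so edgeR had little power there. Named genes are all 10 members, PCBP1 and up to 5 genes per other list with the smallest p. From the 10 members, transcripts with at least 5% of counts, and the 5 genes most like HSPA1A plus HSPA1B (mean of at least 1 CPM), were also named. Outside that rule, HSPA7, the cell type markers HBG2, EPOR, HBZ, LYZ and MS4A1, and the genes overlapping a member were named after their values were seen. Like the members, the other lists were chosen with earlier results of these data known. Some genes covered by the naming rule are not reported here.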

Additional observations from a re-analysis of the deposited data

How the results depend on the processing

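HSPA8, HSP90AA1, HSP90AB1 and HSPH1 were called lower in all alternatives run. Between 4 and 9 of the 10 genes were called, 0 of them higher. Of all genes entering those fits, 4.6% (length offset) to 10.1% (10 counts in every library) were called lower. By DESeq2, 11.5% of the 17770 genes to which it gave an adjusted p were called lower. HSPA1A was called when genes with any count were tested (−0.15, adjusted p = 0.0452). HSPA1B was called there (−0.20, adjusted p = 0.00377), by DESeq2 (−0.20, 0.0273) and with 10 counts in every library (−0.20, 0.0488). Their sum was called by DESeq2 (−0.18, adjusted p = 0.0465) and with any count (−0.17, 0.0164). With a transcript length offset DNAJB1 (−0.16, adjusted p = 0.113) and BAG3 (−0.29, 0.106) lost their calls, and 1882 genes were called against 3333.

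Same-numbered libraries deviated with r of −0.03, −0.12 and 0.02, so the numbers were not taken as pairs. With a replicate block DNAJB1 was at −0.18 (adjusted p = 0.0971), 23 genes of the other lists were called lower against 35, all genes called numbered 2490, and DNAJB1-204 was at 0.0014. That transcript was at 7.3e-05 by DESeq2, which called 4 transcripts, and HSF1-204 at −0.0026 with any count.

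Leaving out 1 library gave log2 fold changes of −0.11 to 0.0078 for HSF1, −0.23 to −0.10 for HSPA1A, −0.29 to −0.14 for HSPA1B, −0.26 to −0.12 for their sum, −0.24 to −0.16 for DNAJB1, −0.21 to −0.069 for HSPB1 and −0.37 to −0.22 for BAG3. The log2 ratio of HSP90AA1 to HSP90AB1 ran from −0.015 to 0.043, calls higher on the other lists from 2 to 3, HSF1-204 from −0.069 to 0.067, HSF1-201 from −0.19 to 0.44, HSPH1-209 from −0.37 to 0.011 and DNAJB1-204 from −0.12 to 0.10. The cause was not tested. The J-domain median turned to −0.03 with the length offset and without −Dox replicate 1 or 3, and the small heat shock median to −0.06 without −Dox replicate 3, against 0.42 with any count and 0.20 without −Dox replicate 1 or 2. The median of other cytosolic HSP70 genes was −0.18 without +Dox replicate 3.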
